A study of Mus musculus with 16 samples.

Results

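Ccr1, Ccr2, Ccrl2 and Cx3cr1 are the 4 chemokine receptor genes of monocytes and their relatives that were followed here, chosen by their gene names from the 20200 genes of the count table. All 4 were among the 11998 genes tested. The RNA came from interface tissue, the tissue around the grafted tendon in the bone tunnels after anterior cruciate ligament reconstruction (ACLR) in wild-type C57BL/6 mice, which were male by the methods. Live CD45+ CD11b+ cells without lineage markers were flow sorted on days 1 and 14 after surgery into CD9+ macrophages (Ly6G-, F4/80+, CD9+), CX3CR1+ macrophages (Ly6G-, F4/80+, CX3CR1+, without CD9), F4/80- myeloid cells (Ly6G-) and Ly6G+ neutrophils. Each of these 4 populations had 2 libraries on each day, 16 in all. By the methods a library pooled cells of several mice, and the rare cells with both CD9 and CX3CR1 were sorted as CD9+ macrophages. No sample came from unoperated mice, so the data have a time course but no baseline before surgery.

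Chemokine receptors are membrane proteins that couple to inhibitory G proteins and steer leukocytes along gradients of chemokines. CCR2 binds CCL2 and its relatives and is needed for the exit of classical monocytes from bone marrow, CCR1 binds several inflammatory CC chemokines, and CX3CR1, the fractalkine receptor, marks patrolling monocytes and many tissue macrophages. CCRL2 is an atypical receptor that does not signal as the others do but binds chemerin and presents it to neighbouring cells with the receptor CMKLR1.

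All 4 genes lie on chromosome 9 of mm10. Ccr1 (ENSMUSG00000025804, 123962124 to 123968692, minus strand) and Ccr2 (ENSMUSG00000049103, 124101950 to 124113557, plus strand) belong to a cluster of receptor genes that also holds Ccr3. Ccrl2 (ENSMUSG00000043953, 111054486 to 111057519, minus strand) and Cx3cr1 (ENSMUSG00000052336, 119901616 to 120069879, minus strand) lie apart from it. The counts cover whole exons of each gene. Similar copies could share reads, so windows of 50 bases were compared between the transcripts of the Gencode M21 annotation of the same build. None of the 2784 windows of Ccr1 and none of the 2588 of Ccrl2 occurred in another gene, against 129 of 6758 (1.91%) for Ccr2. For Cx3cr1 47 of 4453 windows (1.06%) occurred elsewhere, and 78 of its exon bases also lie in exons of Gm33858 on the opposite strand. How the counting treated strand is not stated in the sources used here, so reads of that stretch cannot be assigned to either gene.

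The stretches upstream of Ccrl2, which had the largest change over time among the 4 genes, and of Ccr1, which changed in the same direction in every population, are shown because annotated exons cover 0 bases of the Ccr1 stretch and 1 base, at its downstream end, of the Ccrl2 stretch. They come from RefSeq promoter windows of build GRCm38.p6 on the minus strand, from chr9:111057520-111057768 and chr9:123968693-123968942, and run up to the transcription start.
Ccrl2: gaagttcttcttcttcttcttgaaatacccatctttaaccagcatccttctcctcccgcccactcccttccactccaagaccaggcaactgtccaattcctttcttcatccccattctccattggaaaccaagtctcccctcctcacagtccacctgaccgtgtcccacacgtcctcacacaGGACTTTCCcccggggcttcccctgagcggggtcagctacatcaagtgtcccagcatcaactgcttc
Ccr1: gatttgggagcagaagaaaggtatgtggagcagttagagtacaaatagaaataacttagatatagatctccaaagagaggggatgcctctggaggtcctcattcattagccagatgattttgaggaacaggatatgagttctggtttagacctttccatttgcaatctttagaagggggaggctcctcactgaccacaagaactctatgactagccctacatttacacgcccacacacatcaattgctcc
The capitals in the Ccrl2 stretch mark a match to the letters GGANTTTCC, a kB-like motif to which NF-kB proteins can bind, which begins 68 bases before the start. On either strand these letters occurred in 350 of 32851 promoter windows of 250 bases (1.07%), and in no window of Ccr1, Ccr2 or Cx3cr1. Ccrl2 has 3 such windows, for 3 annotated starts, and only the printed one holds the match. This motif was chosen after the sequences had been seen. The other motifs searched on both strands were GGG, any 2 letters and TTTCC (kB-like), TTGCNNAA (C/EBP-like), GAGGAAGT (PU.1-like) and GAAA, any 2 letters and GAAA (interferon response-like), and none of them occurred in a window of the 4 genes. They were held by 1.41%, 9.56%, 2.44% and 2.98% of all windows. A match describes letters and was not tested as a binding site, and the lack of one says nothing about a factor.

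Levels are given in CPM, gene counts brought to 1 common library total, after TMM scaling, which corrects for library composition. Total counts lay between 9233952 and 19814119 per library, and the smallest count of any of the 4 genes in a library was 29. The markers of the gates followed the labels in part. Summed CPM of 9 macrophage genes (such as Adgre1, Csf1r and Mertk) were 1106 to 1916 in the 2 macrophage populations, 182 to 226 in F4/80- cells, and 594 on day 1 and 184 to 189 on day 14 in neutrophils. The sum of 11 neutrophil genes was 57942 to 122486 in neutrophils, but also 33508 to 43561 in F4/80- cells and 5777 to 20689 in CD9+ macrophages, against 513 to 1103 in CX3CR1+ macrophages. CD9+ macrophages on day 14 stood apart in eosinophil genes, which summed to 665 and 677 CPM on day 1 but to 7258 and 11782 CPM on day 14, against 35.7 to 132 in the other populations. None of the 9 eosinophil genes was at 0 in CD9+ libraries, and the same held in neutrophils and in all libraries of day 14. The 2 libraries of CD9+ macrophages on day 1 were the least alike of all groups (Pearson r of log2 CPM across genes 0.935, against at least 0.976).

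Ccr1, the receptor of several inflammatory CC chemokines, was at its highest in neutrophils and lower on day 14 than on day 1 in all 4 populations. In neutrophils its libraries had 1294 and 1229 CPM on day 1 and 664 and 642 CPM on day 14. CX3CR1+ macrophages had 240 and 261 CPM on day 1 and 102 and 79.5 CPM on day 14, and CD9+ macrophages 213 and 184, then 82.6 and 86.9. F4/80- cells had the lowest levels, 148 and 124 CPM on day 1 and 62.5 and 69.3 CPM on day 14. Day 1 and day 14 libraries did not overlap in any population. The same held for Ccrl2, which was called over time in neutrophils only. Since an exact permutation test of 2 libraries against 2 cannot go below p = 0.333, such a separation alone is weak. The share of all genes tested whose libraries separate in this way is not given here. The separations named here and below are thus descriptions of single genes, not a trait set against other genes.

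**Figure D1:**
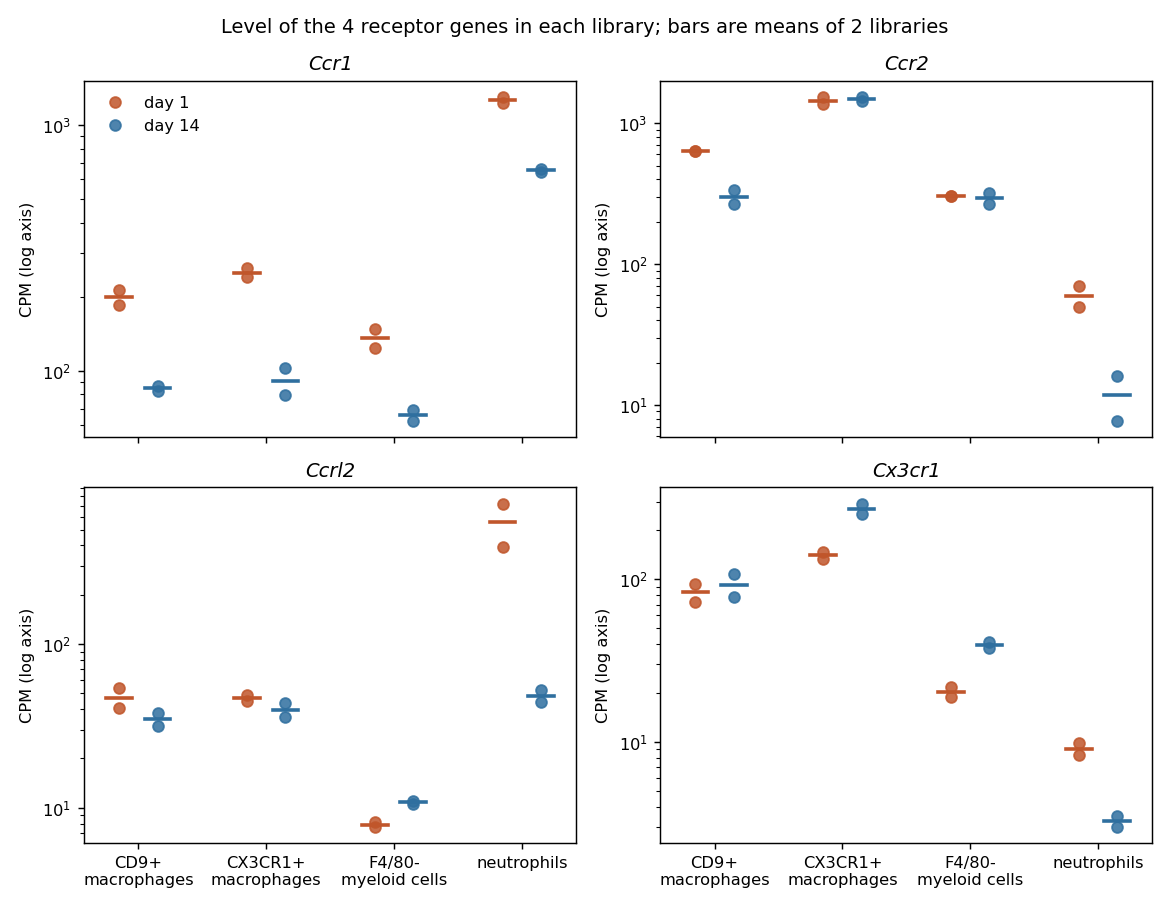
Level of each gene in CPM (log axis) in the 4 populations on day 1 and day 14. Points are libraries and short bars the mean of 2 libraries. Ccr1 and Ccrl2 are highest in day 1 neutrophils, and Ccr2 and Cx3cr1 in CX3CR1+ macrophages.

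A gene was called as changed where its adjusted p was under 0.05 (quasi-likelihood test of edgeR, Benjamini-Hochberg correction over all genes tested) and its log2 fold change was 1 or more in size. Ccr1 fell in 3 populations by this rule. The log2 fold change of Ccr1 from day 1 to day 14 was -1.46 in CX3CR1+ macrophages (standard error, SE, 0.14, adjusted p = 1.0e-05, edgeR). It was -1.23 in CD9+ macrophages (SE 0.14, adjusted p = 5.4e-05) and -1.04 in F4/80- cells (SE 0.14, adjusted p = 0.00042). In neutrophils it was -0.95 (SE 0.14, adjusted p = 0.00013), past the threshold on p but short of that on the fold. Without the first library of F4/80- cells on day 1, or on day 14, the value there was -0.90 or -0.97 and no longer called. None of the 6 differences between populations in the Ccr1 change passed its own test. The largest, CX3CR1+ macrophages minus neutrophils, was -0.51 (95% interval -0.93 to -0.09, adjusted p = 0.11, edgeR). It alone had an unadjusted p under 0.05, and it alone passed with DESeq2 (adjusted p = 0.043). The p-values rest on the spread between libraries of a group, and the fit treats all libraries as independent. By the mouse number in the paper, however, libraries of different populations share mice. The falls of Ccr1 in the populations are thus not independent observations, and the p-values can overstate the evidence from separate pools of mice. A CPM cannot tell fewer cells of a type in a sort from less RNA per cell.

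Ccr2, the receptor that takes classical monocytes out of the bone marrow, was highest in CX3CR1+ macrophages and did not pass the test over time there. Its libraries had 1369 and 1525 CPM on day 1 and 1427 and 1530 CPM on day 14, with overlapping values. The log2 fold change was 0.03 (95% interval -0.43 to 0.49, adjusted p = 0.95, edgeR), so that a change within these bounds in either direction is not excluded by 2 libraries a day. CD9+ macrophages had 638 and 637 CPM on day 1 and 267 and 334 CPM on day 14. Ccr2 thus fell in CD9+ macrophages by 1.09 on the log2 scale (SE 0.22, adjusted p = 0.0039, edgeR), and the days did not overlap. The fall was -0.89 with scaling by library size only and -0.92 without the first CD9+ library of day 14, and was not called in either case. Markers moved beside it. The eosinophil sum in CD9+ macrophages was higher on day 14 as given above, the sum of 8 basophil and mast cell genes went from 303 and 158 CPM to 600 and 512 CPM, and that of 7 lymphocyte genes from 10.5 and 6.13 CPM to 31.4 and 28.2 CPM. The part of other cells in this fall was not tested. F4/80- cells had 306 and 303 CPM of Ccr2 on day 1 and 321 and 268 CPM on day 14, a log2 fold change of -0.05 (95% interval -0.51 to 0.42, adjusted p = 0.94).

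In neutrophils Ccr2 was low and fell, from 69.5 and 49.9 CPM on day 1 to 16 and 7.72 CPM on day 14 (log2 fold change -2.35, SE 0.25, adjusted p = 7.3e-06, edgeR). Behind these levels stood 927 and 568 counts on day 1, against 133 and 75 counts on day 14. The macrophage marker sum of the neutrophil libraries was also higher on day 1, at 594 CPM in both libraries against 184 and 189 on day 14, and its part in this fall was not tested. The change in neutrophils differed from that in each other population by the interaction term of the fit, which tests a difference of changes and was called at an adjusted p under 0.05. The difference was 2.38 for CX3CR1+ macrophages (SE 0.33, adjusted p = 0.00024), 2.30 for F4/80- cells (SE 0.33, adjusted p = 0.00033) and 1.26 for CD9+ macrophages (SE 0.33, adjusted p = 0.024). The last of these was lost without the first neutrophil library of day 1 (1.00, adjusted p = 0.067), the second CD9+ library of day 14 (1.06, adjusted p = 0.10) or the second neutrophil library of day 14 (0.81, adjusted p = 0.13). Between the macrophage populations the change of Ccr2 differed by -1.12, CD9+ minus CX3CR1+ (95% interval -1.77 to -0.46), which missed the threshold at an adjusted p of 0.067 with edgeR and passed with DESeq2 (adjusted p = 0.0064) and in the fit without neutrophils (adjusted p = 0.011).

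Ccrl2, the chemerin-presenting receptor, had its highest level in neutrophils on day 1 and a level near that of macrophages there on day 14. The neutrophil libraries had 393 and 721 CPM on day 1 and 44.2 and 52.7 CPM on day 14. The log2 fold change was -3.52 (SE 0.24, adjusted p = 7.9e-08, edgeR), the largest among the 16 changes over time of the 4 genes. The day 1 libraries were far apart, yet each was above every library of any other group. The neutrophil marker sum of these libraries was 95013 and 57942 CPM in the same order, against 115857 and 122486 on day 14, and its part in the fall was not tested. CD9+ macrophages had 40.4 and 53.5 CPM on day 1 and 31.7 and 37.9 CPM on day 14, and CX3CR1+ macrophages 45.2 and 48.8, then 35.9 and 43.6. F4/80- cells were lowest, with 8.15 and 7.61 CPM on day 1 and 10.6 and 10.9 CPM on day 14. None of these 3 populations passed the test over time with edgeR, at an unadjusted p under 0.05 (0 of 3), or with DESeq2 (0 of 3): the log2 fold change was -0.43 in CD9+ macrophages (95% interval -0.92 to 0.06), -0.24 in CX3CR1+ macrophages (-0.72 to 0.24) and 0.45 in F4/80- cells (-0.09 to 1.00). Their changes differed from that of neutrophils by 3.09, 3.28 and 3.97 in this order (SEs 0.33, 0.32 and 0.35, adjusted p = 3.7e-05, 1.2e-05 and 3.6e-06, edgeR).

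Cx3cr1, the fractalkine receptor, was highest in CX3CR1+ macrophages. Its protein was part of the gate that sorted them, so its excess there checks the sort and is no finding. CX3CR1+ macrophages had 133 and 148 CPM on day 1 and 253 and 293 CPM on day 14, a log2 fold change of 0.96 (SE 0.17, adjusted p = 0.0015, edgeR), and F4/80- cells had 21.9 and 18.9 CPM on day 1 and 37.6 and 41.1 CPM on day 14 (log2 fold change 0.95, SE 0.18, adjusted p = 0.0048). Both passed the threshold on p and fell short of that on the fold, and the days did not overlap in either. The sum of 8 dendritic cell genes was also higher on day 14 in these libraries, at 71.6 and 80.8 CPM after 26.0 and 24.6 CPM in CX3CR1+ macrophages and at 77.0 and 74.4 CPM after 48.5 and 47.9 CPM in F4/80- cells. In CX3CR1+ macrophages the sum of the 9 macrophage genes was lower on day 14, at 1280 and 1394 CPM after 1806 and 1916 CPM. Of these genes C1qa and Mertk, picked after their values were seen, fell further. C1qa was at 56.9 and 46.9 CPM on day 1 against 6.45 and 7.33 CPM on day 14, and Mertk at 17.5 and 22.2 CPM against 1.39 and 1.86 CPM. The part of these cells in the Cx3cr1 values was not tested. CD9+ macrophages, sorted for CD9, had 73.0 and 93.7 CPM on day 1 and 78.1 and 108 CPM on day 14, which overlapped (log2 fold change 0.16, 95% interval -0.20 to 0.52, adjusted p = 0.56). Cx3cr1 fell in neutrophils, from 8.25 and 9.83 CPM on day 1, on 110 and 112 counts, to 3.49 and 2.98 CPM on day 14, on 29 counts each (log2 fold change -1.48, SE 0.24, adjusted p = 0.00036). As for Ccr2, the macrophage marker sum of these libraries was lower on day 14 (594 CPM in both libraries of day 1, then 184 and 189), and its part in this fall and in the differences that rest on it was not tested. Its change in neutrophils differed from that in CD9+ macrophages by 1.64 (SE 0.30, adjusted p = 0.0026), in CX3CR1+ macrophages by 2.44 (SE 0.30, adjusted p = 6.9e-05) and in F4/80- cells by 2.43 (SE 0.30, adjusted p = 8.4e-05).

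**Figure D2:**
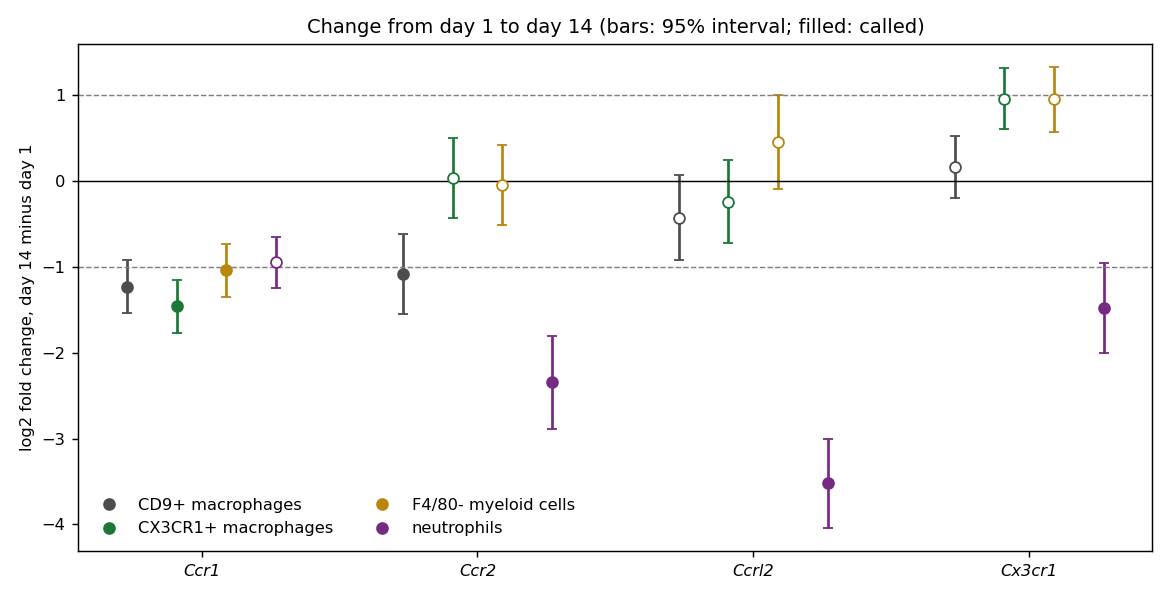
Log2 fold change from day 1 to day 14 of each gene in each population, with 95% intervals. Filled points were called and open points were not, and dashed lines mark a log2 fold change of 1 in either direction. Ccr1 is below 0 in every population, and the lowest point is Ccrl2 in neutrophils at -3.52.

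Counted per population, 3 of the 4 genes fell in neutrophils, where 14.1% of all genes tested were called, and 2 of 4 fell in CD9+ macrophages (8.23% of all genes called). The count was 1 of 4 in CX3CR1+ macrophages (5.86% of all genes called) and 1 of 4 in F4/80- cells (3.25%). No gene of the 4 rose by the rule with edgeR or DESeq2, and Cx3cr1 in CX3CR1+ macrophages and F4/80- cells was the 1 gene with a positive change at an unadjusted p under 0.05. The median log2 fold change of the 4 genes was -1.91 in neutrophils, -0.76 in CD9+ macrophages, -0.11 in CX3CR1+ macrophages and 0.20 in F4/80- cells, while the median of all genes tested lay between -0.02 and 0.03. For the differences of changes, 3 of the 4 genes (Ccr2, Ccrl2 and Cx3cr1) were called between neutrophils and CD9+ macrophages (11.2% of all genes), CX3CR1+ macrophages (12.3%) and F4/80- cells (10.8%), and 0 of 4 between the other pairs, where 2.84% (CD9+ and CX3CR1+ macrophages), 2.01% (CD9+ macrophages and F4/80- cells) and 1.17% (CX3CR1+ macrophages and F4/80- cells) of genes were called. These comparisons share the neutrophil libraries. Those counts of 0 are edgeR's: at an unadjusted p under 0.05 the numbers were 2, 3 and 0 of 4 in the same order, and DESeq2 called Ccr2 in the first and second of these pairs and no gene in the third.

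Between the 2 macrophage populations, Ccr2 was called on both days and Ccr1 and Ccrl2 on neither. The difference in Ccr2, CD9+ minus CX3CR1+, was -1.18 on day 1 (SE 0.22, adjusted p = 0.0019, edgeR) and -2.30 on day 14 (SE 0.23, adjusted p = 2.4e-06). For Ccr1 it was -0.33 on day 1 (95% interval -0.63 to -0.04, adjusted p = 0.12) and -0.10 on day 14 (-0.40 to 0.20, adjusted p = 0.67). The Ccr1 libraries of the 2 populations did not overlap on day 1 and overlapped on day 14. For Ccrl2 it was 0.00 on day 1 (95% interval -0.48 to 0.48) and -0.19 on day 14 (-0.69 to 0.30). Cx3cr1, the gate gene, differed by -0.76 on day 1, under the fold threshold, and by -1.55 on day 14. In all, 1 of the 4 genes was called between the macrophages on day 1, against 8.23% of all genes, and 2 of 4 on day 14, against 14.2%. The day 14 count includes Cx3cr1 and is thus partly set by the sort.

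F4/80- cells had less Ccrl2 and Cx3cr1 than either macrophage population on both days. Ccrl2 was higher than in F4/80- cells by 2.57 on day 1 and 1.69 on day 14 in CD9+ macrophages, and by 2.58 and 1.88 in CX3CR1+ macrophages (log2, largest adjusted p = 0.00025, edgeR). Ccr2 on day 14 was alike in level in CD9+ macrophages and F4/80- cells, with a difference of 0.03 (95% interval -0.44 to 0.49, adjusted p = 0.96), after CD9+ macrophages had been higher by 1.07 on day 1 (adjusted p = 0.0020). That day 1 call was lost with scaling by library size (0.79) or by upper quartile (0.97). For Cx3cr1 the difference between CD9+ macrophages and F4/80- cells on day 14 was 1.24, and its call was lost without the second CD9+ library of day 14 (0.96). CD9+ macrophages differed from F4/80- cells in 3 of the 4 genes on day 1 (15.4% of all genes called) and in 2 of 4 on day 14 (7.7%), and CX3CR1+ macrophages in 3 of 4 on both days (21.1% and 21.5%). The counts for CX3CR1+ macrophages include Cx3cr1, the gate gene, and are thus partly set by the sort.

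Neutrophils differed from the other populations in most of the 4 genes, as they did in about as many of all genes as not. On day 1 each of the 3 other populations differed from neutrophils in 4 of 4 genes, Ccr1 and Ccrl2 being higher in neutrophils and Ccr2 and Cx3cr1 lower, where 49.5% (CD9+), 51% (CX3CR1+) and 49% (F4/80-) of all genes were called. On day 14 the macrophage populations differed in 3 of 4 (49.5% and 48% of all genes) and F4/80- cells in 4 of 4 (48.7%). The gene that left the count was Ccrl2, with differences from neutrophils of -0.48 for CD9+ macrophages (95% interval -0.98 to 0.02, adjusted p = 0.079) and -0.29 for CX3CR1+ macrophages (-0.78 to 0.21, adjusted p = 0.28). Here too the counts for CX3CR1+ macrophages include the gate gene Cx3cr1.

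Ordered by level over the 8 groups, Ccr1 ran from neutrophils on day 1 and day 14 to CX3CR1+, CD9+ and F4/80- cells on day 1 and then to the same 3 populations in the same order on day 14. Of its 7 neighbouring pairs only day 14 neutrophils and day 1 CX3CR1+ macrophages differed by the call rule, and the libraries of CX3CR1+ and CD9+ macrophages on day 14 overlapped. Ccr2 ran from CX3CR1+ macrophages on either day, which overlapped, to CD9+ macrophages on day 1, then to a run of F4/80- cells on day 1, CD9+ macrophages on day 14 and F4/80- cells on day 14 that did not differ (adjusted p = 0.97 and 0.96 between neighbours), and to neutrophils on day 1 and day 14. For Ccrl2 the 5 groups between day 1 neutrophils and F4/80- cells, from 48.4 to 34.8 CPM in mean, overlapped between each pair of neighbours. For Cx3cr1 the groups ran from CX3CR1+ macrophages to CD9+ macrophages, F4/80- cells and neutrophils. By the call rule day 1 CD9+ macrophages differed from day 14 F4/80- cells, day 1 F4/80- cells from day 1 neutrophils, and the 2 days of neutrophils from each other. The other neighbours were not called, though only the 2 days of CD9+ macrophages overlapped.

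Compared per kilobase of exon, which allows levels of different genes to be set side by side, the leading receptor gene differed between the populations. In neutrophils Ccr1 stood at 445 ± 16.3 CPM per kb on day 1 and 231 ± 5.34 on day 14 (SD, n = 2), above Ccrl2 at 214 ± 89.2 and 18.6 ± 2.31. In CX3CR1+ macrophages Ccr2 led, with 214 ± 16.3 and 219 ± 10.7 CPM per kb, above Ccr1 at 88.4 ± 5.36 and 32.1 ± 5.64, and Cx3cr1 stood at 31.2 ± 2.26 on day 1 and 60.5 ± 6.34 on day 14. Cx3cr1 was thus below Ccr1 on day 1 and above it on day 14 in these cells. CD9+ macrophages also had more Ccr2 than Ccr1 per kb, at 94.3 ± 0.071 against 70.2 ± 7.29 on day 1 and 44.4 ± 7.03 against 29.9 ± 1.06 on day 14. In F4/80- cells Ccr1 and Ccr2 were close on day 1, at 47.9 ± 5.91 and 45 ± 0.32 CPM per kb, and apart on day 14, at 23.3 ± 1.70 and 43.6 ± 5.61. No test between genes was made.

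**Figure D3:**
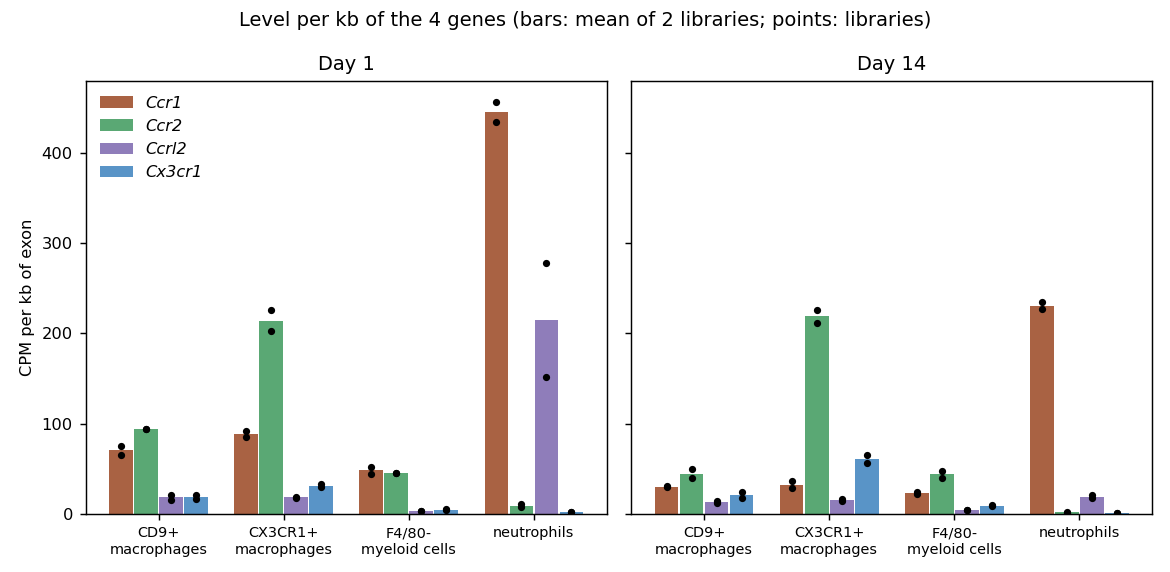
Level per kb of exon (linear axis) of the 4 genes in each population on day 1 (left) and day 14 (right). Bars are means of 2 libraries and points the libraries. Ccr1 leads in neutrophils and Ccr2 in CX3CR1+ macrophages on both days, and the Ccrl2 bar of neutrophils is high only on day 1.

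The genes most alike in pattern were taken by Pearson's r of log2 CPM over the 16 libraries, which share populations and days, so that r is a description. For Ccrl2 they were Ninj1 (r = 0.98), Birc3 (0.97), Spag9 (0.96), Bcl2l11 (0.96) and Ptafr (0.96), of which Birc3 encodes an inhibitor of apoptosis, Bcl2l11 the cell death protein BIM and Ptafr the receptor of platelet-activating factor. Nearest to Ccr1 were Gcnt2 (0.99), Rhbdf2 (0.98), Ptpn6 (0.98), Gk (0.98) and Snx14 (0.97), where Ptpn6 encodes the phosphatase SHP-1. Ms4a4c, Ms4a6c, Ifi209, Pld4 and Rassf4 were nearest to Ccr2, each at r = 0.99. For Cx3cr1 they were Cd180 (0.99), Ifi211 (0.98), Prcp (0.98), Arl5c (0.98) and Ehd4 (0.98), Cd180 encoding a toll-like receptor relative. Among the 4 genes themselves Ccr2 and Cx3cr1 had the highest r (0.94) and Ccr1 and Ccrl2 the next (0.78).

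The ligands of these receptors were described from a list of 11 genes, of which 10 were in the table and 8 tested. Ccl2 and Ccl7, ligands of CCR2, fell in both macrophage populations. Ccl2 had 546 and 393 CPM in CD9+ macrophages on day 1 and 63.9 and 88.2 CPM on day 14, a log2 fold change of -2.63 (SE 0.21, adjusted p = 1.9e-06, edgeR), and fell by 1.13 in CX3CR1+ macrophages (SE 0.20, adjusted p = 0.0014). Ccl7 had log2 fold changes of -3.51 and -4.45 in these populations. Ccl9, a ligand of CCR1, fell in CD9+ macrophages by 1.10 and was not called in CX3CR1+ macrophages. Ccl5 was higher on day 14 by 2.86 in CD9+ and by 2.80 in CX3CR1+ macrophages, though on at most 33 counts in a library. It passed the CPM filter for testing only through CD9+ macrophages of day 14, the group where it was highest. Both Ccl5 calls were lost with no filter (adjusted p = 0.069 and 0.090, edgeR) and with the filter that edgeR supplies (0.061 and 0.080). In all, 1 ligand was higher and 3 lower in CD9+ macrophages on day 14 (8.23% of all genes called), 1 higher and 2 lower in CX3CR1+ macrophages (5.86%), 0 and 1 in F4/80- cells (3.25%) and 0 and 5 in neutrophils (14.1%). Some of these calls rested on 1 library. The Ccl5 calls were lost without any of several libraries, at the least to 2.73 (adjusted p = 0.072, without the first CD9+ library of day 1) and 2.25 (adjusted p = 0.27, without the second CX3CR1+ library of day 14), and also with the replicate block. The Ccl9 call was lost without the first CD9+ library of day 1 (-0.99) or day 14 (-0.95), and that of Ccl2 in CX3CR1+ macrophages without the second library of day 1 (-0.92). The 5 that fell in neutrophils were Ccl2, Ccl7, Ccl9, Ccl3 and Ccl4, with Ccl3 from 1510 and 3037 CPM to 66.1 and 59.5 CPM. Cx3cl1, the ligand of CX3CR1, and Rarres2, which encodes chemerin, were too low to be tested, with at most 11 and 5 counts in a library. Between the macrophages on day 14, Ccl2 (-1.36) and Ccl9 (-1.09) were lower and Ccl7 (1.88) higher in CD9+ cells (14.2% of all genes called), the Ccl9 call being lost without the first CD9+ library of day 14 (-0.96), and on day 1 none of the 8 was called by edgeR or DESeq2 (1 at an unadjusted p under 0.05). The median log2 fold change of the 8 ligands over time was -0.79 in CD9+ and -0.32 in CX3CR1+ macrophages, against 0.00 and 0.03 over all genes.

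Other chemokine receptor genes were called only as lower on day 14, and most of these calls rested on single libraries. Ackr3 reached the mean of 3 CPM needed for testing only in day 1 CD9+ macrophages (6.70 CPM after TMM scaling). Cxcr1 (10.4 CPM) and Cxcr5 (4.81 CPM) reached it only in day 1 neutrophils. These genes were thus tested because of the day 1 group where they were high, which by itself favours a fall there. Of 20 listed, 13 were in the table and 7 tested, and none was called as higher on day 14 in any population (edgeR), against 2 lower in CD9+ macrophages (8.23% of all genes called), 3 in CX3CR1+ macrophages (5.86%), 2 in F4/80- cells (3.25%) and 4 in neutrophils (14.1%). Leaving out 1 library lost 2, 1, 2 and 3 of these calls. The median log2 fold change of the 7 receptors tested was 0.00 in CD9+ and -0.91 in CX3CR1+ macrophages. The 0.00 is that of genes without reads, as Cxcr1 and Cxcr5 had 0 counts in every CD9+ library. Cxcr4 was not called, yet its values were higher on day 14 in both macrophage populations. In CD9+ cells it had 163 and 156 CPM on day 1 and 261 and 269 CPM on day 14. In CX3CR1+ cells it had 138 and 140 CPM, then 264 and 246 CPM. Cmklr1, the signalling receptor of chemerin, had log2 fold changes of -1.29 in CD9+ and -2.77 in CX3CR1+ macrophages, and Ackr3, an atypical receptor, of -3.87 in CD9+ macrophages. In CD9+ cells the Cmklr1 call was lost without the second library of day 1 (-0.68) or the first of day 14 (-0.85), the Ackr3 call without the first library of day 14 (-3.41, adjusted p = 0.088), and both with the replicate block. Ackr3 was at 0 counts in both CX3CR1+ libraries of day 14, after 18 and 20 counts on day 1, and its fitted value there depends on the prior count. Cxcr2, a receptor of neutrophils, fell by 2.89 in CX3CR1+ macrophages. On day 14 CD9+ macrophages had more Ccr3 (log2 difference 7.10), Cxcr2 (3.27) and Cmklr1 (1.47) than CX3CR1+ macrophages. On day 1 they had more Ccr3 (5.59), Ackr3 (2.85) and Cxcr2 (1.30). Since Ackr3 was tested only through day 1 CD9+ macrophages, that choice by itself favours its excess there. The day 14 Cmklr1 call was lost without the second library of either population (0.86 and 1.41), and the day 1 Ackr3 call without the second CD9+ library (2.07) or either CX3CR1+ library (2.64 and 3.03). Cxcr2 on day 1 rested on 1 of the CD9+ libraries, with 43.2 and 15.2 CPM against 13.4 and 10.7 CPM in CX3CR1+ macrophages. Without the first CD9+ library the Cxcr2 difference was 0.33 (adjusted p = 0.57), and DESeq2 did not call it (adjusted p = 0.072). Ccr3 is itself among the eosinophil genes and Cxcr2 among the neutrophil genes summed above, and the part of those cells in these differences was not tested.

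**Figure D4:**
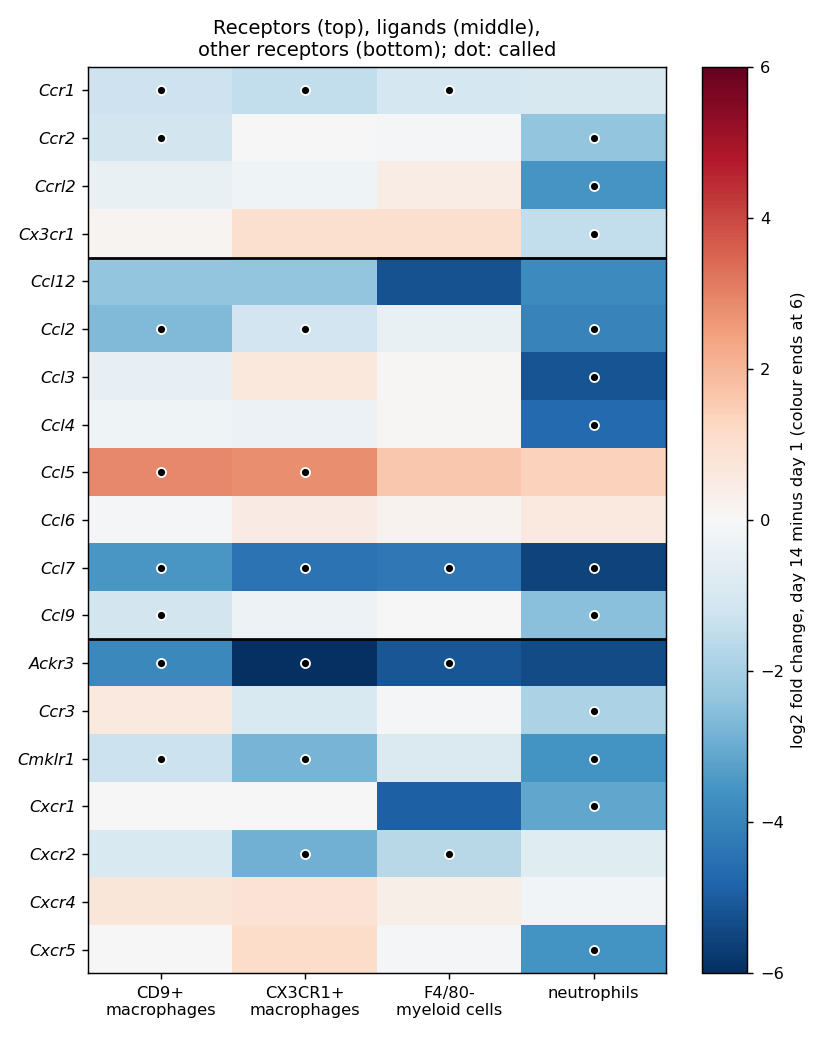
Log2 fold change from day 1 to day 14 (colour, ending at 6) of the 4 receptor genes (top), the 8 tested ligands (middle) and the 7 other receptors tested (bottom) in the 4 populations. Dots mark called changes. Ccl7 is called lower in every population.

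Genes of receptor coupling, desensitization and chemotaxis had median log2 fold changes of -0.03 in CD9+ and 0.01 in CX3CR1+ macrophages. Of the 22 tested of 24 listed, 1 rose and 1 fell in CD9+ macrophages, namely Rgs18 (1.14) and Grk5 (-1.02), and 1 fell in CX3CR1+ macrophages, Rgs1 (-1.25), which encodes a regulator that ends G protein signalling. None was called in F4/80- cells by edgeR or DESeq2, although 5 had an unadjusted p under 0.05 with edgeR, and 1 rose and 3 fell in neutrophils. These counts lay near the share of all genes called in CD9+ (8.23%) and CX3CR1+ macrophages (5.86%), F4/80- cells (3.25%) and neutrophils (14.1%). Both calls in CD9+ macrophages were lost without the second library of day 1 (Rgs18 0.68, Grk5 -0.40) or either library of day 14, and with the replicate block (0.92 and -0.79). Between the macrophages Plcb2 was higher in CD9+ cells on both days (1.09 and 1.97), the day 1 call being lost without the first CD9+ library (0.90) or the second CX3CR1+ library (0.93) and with library size scaling (0.85). On day 14 Rgs1 (1.78) and Arrb2 (1.19), which encodes beta-arrestin 2, were higher there and Grk5 (-1.90), a receptor kinase, lower.

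Genes of classical and patrolling monocytes, the cells best known for CCR2 and CX3CR1, were described in the same way. Of 7 classical monocyte genes, all tested, 3 fell and none rose in CD9+ macrophages, namely Vcan (-3.74), Fn1 (-1.89) and F13a1 (-1.36), where 8.23% of all genes were called. In CX3CR1+ macrophages (5.86% of all genes) Vcan (-1.93) and Chil3 (-1.01) fell, the Chil3 call being lost without any 1 of the 4 libraries compared (-1.08 to -0.96). In F4/80- cells (3.25%) 1 gene fell, and in neutrophils (14.1%) 1 rose and 3 fell, the rise, of Chil3, being lost without the second library of day 1 (0.77). The median of the 7 was -0.78 in CD9+ macrophages, against -0.09 in the CX3CR1+ ones. On day 14 4 of the 7 were lower in CD9+ than in CX3CR1+ macrophages and 1 higher (14.2% of all genes called), the higher one, Chil3 (1.18), losing its call without the first CD9+ library (0.83) and the lower ones being Vcan (-2.61), F13a1 (-1.89), Plac8 (-1.39) and Fn1 (-1.36), where on day 1 none was called by edgeR or DESeq2 (2 at an unadjusted p under 0.05). Of 7 patrolling monocyte genes, 1 rose in CD9+ macrophages, Ace (1.45), and 3 in CX3CR1+ macrophages, Cebpb (3.03), Ace (1.14) and Spn (1.01). Each of these 3 calls was lost without single libraries, that of Cebpb without the second of day 1 (2.71, adjusted p = 0.098), that of Ace without any 1 of the 4 compared (0.89 to 1.44) and that of Spn without the first of day 1 (0.89) or the second of day 14 (0.99), and DESeq2 did not call Spn (1.00). In F4/80- cells 1 rose, a call lost without any 1 of 4 libraries (Cebpb, 2.76 to 3.35), and in neutrophils 1 fell, and the median of the 7 was -0.03 in CD9+ and 0.77 in CX3CR1+ macrophages. Between the macrophages, 2 of the 7 were lower in CD9+ than in CX3CR1+ cells on day 14 (14.2% of all genes called). These were Nr4a1, a factor needed by patrolling monocytes, by 1.76 on the log2 scale and Pou2f2 by 1.52. On day 1 only Ace was lower in CD9+ than in CX3CR1+ cells, by 1.27 (8.23% of all genes called). That call was lost without the first CD9+ library of day 1 (-1.14, lost on the adjusted p) or the second CX3CR1+ library of day 1 (-0.98).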

How the data were processed

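RNA of sorted myeloid cells was made into SMART-Seq Stranded libraries and sequenced as paired-end reads. The authors used Cutadapt for trimming and STAR for alignment to mm10, took reads per gene over Gencode M23 exons, and deposited these counts raw, without normalization. The rule by which 20200 genes were listed is not given in the sources used here.

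Groups were taken from the sample titles. Genes whose mean CPM without TMM scaling reached 3 in any 1 of the 8 groups (11998) went into edgeR 4.0.16 under R 4.3.3 (TMM, glmQLFit, glmQLFTest), with 1 mean per group over 16 libraries, Benjamini-Hochberg adjustment over all genes tested, and calls where the adjusted p was under 0.05 and the log2 fold change 1 or more in size (interactions on p alone). The steps were tested on simulated counts. An exact permutation test of 2 libraries against 2 cannot go below p = 0.333, so none was run. Intervals are 95% and not adjusted.

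The 4 genes, the gene lists and the tests were chosen with earlier results of these data known. Named genes are the 4 receptors, the 5 genes most correlated with each (log2 CPM, prior count 2) and, per list, at most 4 called genes with the largest change in the comparisons of the macrophage populations. Other genes given with values were chosen after these were seen, such as those named only for F4/80- cells or neutrophils, Cxcr4, C1qa and Mertk. Alternatives were DESeq2 1.42.0, other scalings and filters, a fit without neutrophils, a replicate block and leaving out each library. Some genes of the lists are not reported here.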

Additional observations from a re-analysis of the deposited data

Results flagged for a closer look

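Of the 24 differences between populations in the change from day 1 to day 14 (4 genes, 6 pairs of populations), 9 passed the interaction test at an adjusted p under 0.05 (edgeR), and each of them set neutrophils against another population. For Ccrl2 the change was less negative than in neutrophils by 3.09 in CD9+ macrophages (adjusted p = 3.7e-05) and by 3.28 in CX3CR1+ macrophages (adjusted p = 1.2e-05), and in F4/80- cells, where the value was positive, the difference was 3.97 (adjusted p = 3.6e-06). For Ccr2 the differences were 1.26 in CD9+ macrophages (adjusted p = 0.024), 2.38 in CX3CR1+ macrophages (adjusted p = 0.00024) and 2.30 in F4/80- cells (adjusted p = 0.00033). For Cx3cr1, whose protein is part of the gate of CX3CR1+ macrophages, they were 1.64 in CD9+ macrophages (adjusted p = 0.0026), 2.44 in CX3CR1+ macrophages (adjusted p = 6.9e-05) and 2.43 in F4/80- cells (adjusted p = 8.4e-05). The 9 values share the neutrophil libraries. Of all genes tested, 11.2% (CD9+), 12.3% (CX3CR1+) and 10.8% (F4/80-) were called against neutrophils, and 1.17% to 2.84% between the other pairs. The Ccr2 value for CD9+ macrophages lost its call without single libraries, as given above. The macrophage marker sum of the neutrophil libraries was 594 CPM on day 1 and 184 and 189 CPM on day 14, and its part was not tested. Ccr1 had no such difference past the threshold. With 2 libraries in a group, no check for a library far from the others of its group was possible.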

How the results depend on the processing

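Of 2138 values of 88 differences under the alternatives, 2098 kept their direction and side of the threshold, 10 lost a call, 30 gained one and 0 reversed. With scaling by library size only, the Ccr2 fall in CD9+ macrophages was -0.89 (not called) and the Cx3cr1 difference between CD9+ and CX3CR1+ macrophages on day 1 was -1.0 (called). This scaling moved the median of all genes by up to 0.61 (log2; F4/80- cells minus neutrophils, day 1) and the share of higher genes among those called by up to 27.3 percentage points, over 10 points in 12 of 22 comparisons; upper-quartile scaling did so in 3 of 22. With no threshold on the fold, Cx3cr1 over time in CX3CR1+ macrophages (0.96) and F4/80- cells (0.95), Ccr1 in neutrophils (-0.95) and Cx3cr1 between the macrophages on day 1 (-0.76) were called. The change of Ccr2 in CD9+ minus CX3CR1+ macrophages passed with DESeq2 (-1.10) and without neutrophils (-1.04). Mean levels moved by more than 1 SD in 21 of 32 cases with library size scaling, 9 with upper-quartile scaling and 2 with DESeq2 size factors.

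Leaving out each library in turn gave ranges of -1.25 to -0.92 for Ccr2 over time in CD9+ macrophages, -1.15 to -0.90 for Ccr1 in F4/80- cells, 0.85 to 1.05 for Cx3cr1 in CX3CR1+ macrophages, 0.86 to 1.07 for Cx3cr1 in F4/80- cells, and, for the change in CD9+ minus CX3CR1+ macrophages, -1.28 to -0.95 for Ccr2 and -1.04 to -0.57 for Cx3cr1. The Ccr2 value passed in 5 of 16 such fits, and the Cx3cr1 value passed without the first CD9+ library of day 1 or the second of day 14. A group left with 1 library was assumed to vary like the others.

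Over all genes, DESeq2 called 656 differences of changes against 341 with edgeR (CD9+ and CX3CR1+ macrophages), 531 against 241 (CD9+ macrophages and F4/80- cells) and 313 against 140 (CX3CR1+ macrophages and F4/80- cells). With a filter on every group (7687 genes), fewer genes were tested and the calls over time were 336, 267, 158 and 733 in CD9+, CX3CR1+, F4/80- cells and neutrophils, against 988, 703, 390 and 1689, and with no threshold on the fold 2124, 1513, 732 and 3318. That filter used CPM without TMM scaling and left out Cx3cr1, and the fit without neutrophils gave no value for comparisons with them.

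For the genes of the lists the same alternatives were chosen after seeing the data. Of 69 called changes and differences, 27 lost their call without 1 library, 9 with the replicate block, 5 with library size scaling, 3 with upper-quartile scaling and 2 with DESeq2, 42 kept it under every alternative, and 0 reversed.

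The labels do not say that a replicate number marks a shared pool. By the mouse number in the paper, each library cannot have had its own pool, so libraries of different populations share mice. The fit reported here treats libraries as independent, and the replicate block pairs those with the same number and day. Deviations of libraries with the same number and day correlated by 0.013 to 0.144, over 0.1 in 3 of 12 pairs of populations. A replicate block within each day moved no value of the 4 genes by more than 0.11 and changed 0 of 88 calls, with Ccr2 in CD9+ macrophages at -1.05 (adjusted p = 0.015, edgeR).

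Each group held 2 pools of mice, which sets the precision of each value. Reads without molecular identifiers are not independent molecules.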
